A study of Mus musculus with 12 samples.

Results

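Toll-like receptors are membrane proteins of innate immune cells that bind conserved parts of microbes or misplaced nucleic acids. The genes described here were chosen by name: the receptors Tlr1, Tlr2, Tlr3, Tlr4, Tlr7, Tlr8, Tlr9 and Tlr13, the co-receptor Cd14 and the adaptor Myd88, which are 10 of the 17358 genes in the deposited table. They were measured by RNA sequencing in perivascular macrophages of the mouse brain, which reside beside its vessels, in 5 libraries from aged mice (18 months) and 7 libraries from young adult mice (3 months). The series text enters the strain of both groups as "C57BL/mice" and calls the libraries biological replicates. The labels name no genotype, treatment, sex, batch or sort marker and do not say how many animals gave a library, so a p-value measures the spread between these libraries.

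Each receptor has an outer part of leucine-rich repeats and an inner signalling domain. Tlr1, Tlr2 and Tlr4 sit at the cell surface and bind lipopeptides or lipopolysaccharide, while Tlr3, Tlr7, Tlr8, Tlr9 and Tlr13 sit in endosomes and bind nucleic acids. Cd14 hands lipopolysaccharide and lipopeptides to the surface receptors, and Myd88 couples every receptor named here except Tlr3 to the kinases that activate NF-kB. Tissue macrophages are known to carry several of these sensors.

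The totals of estimated counts lay between 23214836 and 30628787 a library and averaged 26222251 ± 2872546 in aged libraries and 28766071 ± 1751587 in young libraries (SD, n = 5 and 7, exact two-sided permutation p = 0.0922). Aged libraries 1, 3 and 4 stood apart on the first principal component (16.8% of the variance), at -55.7, -81.8 and -95.7 against values of 1.27 to 34.8 for the other 9 libraries, and log2 fold changes are also given without these 3 libraries. All 12 perivascular macrophage markers were detected, with a summed level of 12340 to 17900 CPM (counts scaled to a common library size) in aged and 13210 to 21530 CPM in young libraries. Microglial markers were present too (3810 to 5671 CPM in aged, 3594 to 6977 CPM in young libraries), whereas the endothelial list summed to at most 4.33 CPM in aged and 27.6 CPM in young libraries. The 8 genes of the monocyte list summed to 34.1 to 244.9 CPM in aged and 20.3 to 129.4 CPM in young libraries, with Nr4a1 and Ccr2 the most abundant and Ly6c2 at no more than 23 counts. The 8 genes of the neutrophil list summed to 11.7 to 120.6 CPM in aged (median 102.8) and 24.4 to 97.3 CPM in young libraries (median 49.1), with Cxcr2 the most abundant and Ly6g at no more than 1 count. The choroid plexus list, which holds the 1 gene past the threshold (Ttr), summed to 176.8 to 1087 CPM in aged and 59.1 to 146.1 CPM in young libraries, and the part of these lists in the values below was not tested.

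None of the 9 genes that passed the filter on low counts (all but Tlr9) changed between aged and young libraries at an adjusted p under 0.05 by edgeR's quasi-likelihood test, where 0.0105% of all 9550 tested genes passed. DESeq2 also called 0 of them, where it called 1.27% of all tested genes, and so did limma voom, where it called 0.0105%. At an unadjusted p under 0.05 the count was 1 (Tlr2, lower in aged libraries), against 5.97% of all tested genes (3.85% higher, 2.12% lower). The log2 fold change of aged over young was positive for 5 genes and negative for 4, with a median of 0.06 against -0.01 over all tested genes. For none of the 9 did the aged and young libraries separate without overlap, which 0.597% of all tested genes did (0.325% higher, 0.272% lower). Over the 12 libraries, tested genes with a mean of at least 10 CPM had a median coefficient of variation of 67%. A gene without a call may therefore still differ between the ages. In these libraries, fewer cells of a type and less RNA per cell cannot be told apart.

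**Figure D1:**
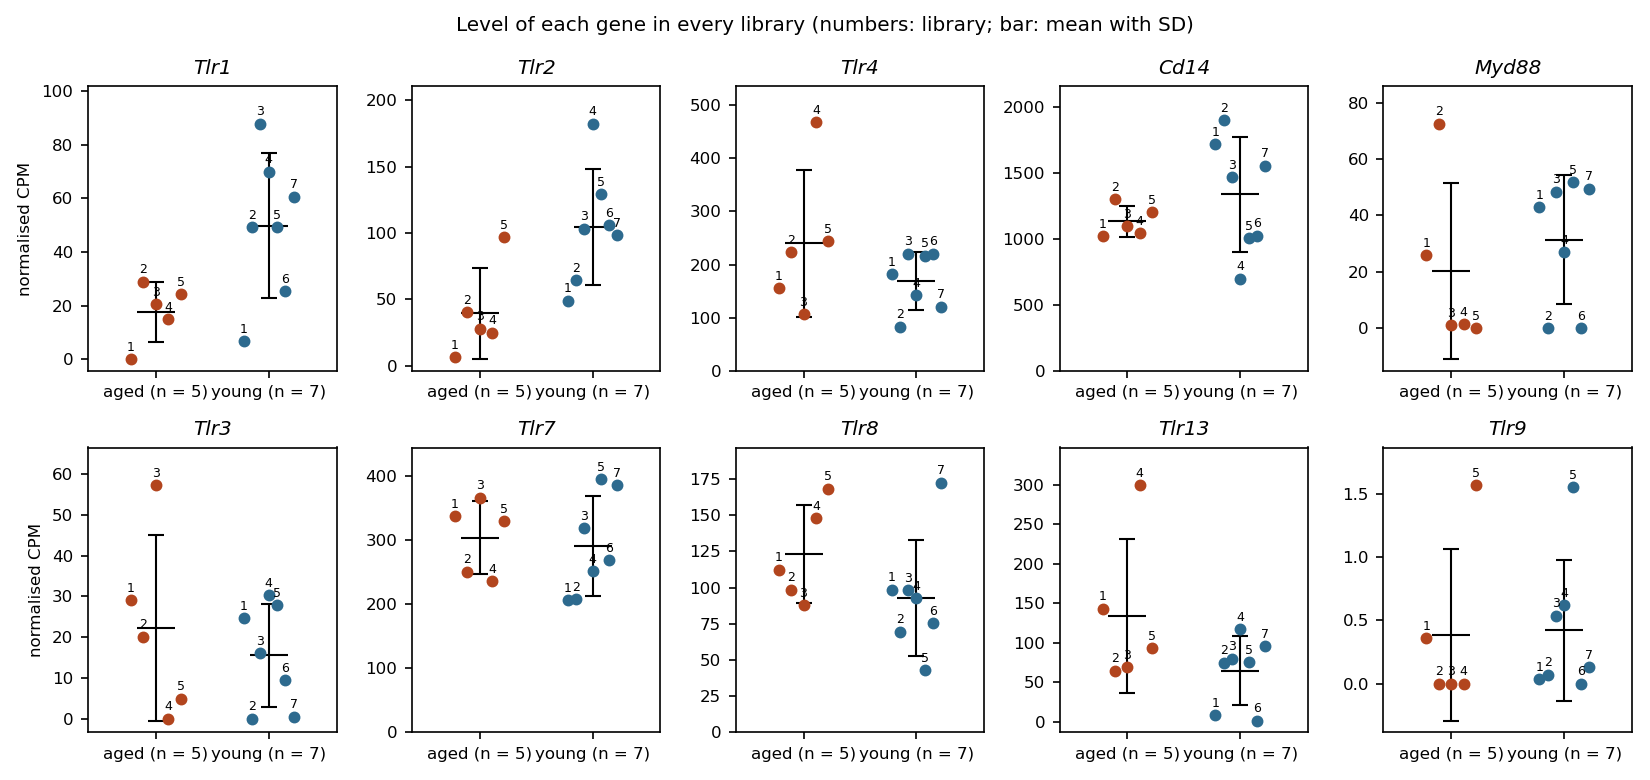
Level of each gene in normalised CPM (vertical axis, linear) in every aged and young library, with the library number beside each point and the mean and SD as bars. For Tlr2, 4 of 5 aged libraries lie under all 7 young ones; for Myd88, libraries of both ages lie near 0.

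Per transcript length, Cd14 had by far the highest level of the 10 genes, and Tlr7 led the receptors. On the deposited FPKM scale, which divides by transcript length so that genes can be compared, Cd14 had a median of 769.9 FPKM over the 12 libraries (548.7 to 1116) and Tlr7 83.2 FPKM (48.95 to 122.9). Cd14 was above Tlr7, and Tlr7 above Tlr2, in 12 of 12 libraries. Tlr7 was the most abundant receptor in 11 libraries and Tlr13 in the remaining 1, aged library 4.

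The next 4 receptors could not be ranked. Their medians were 28.6 FPKM for Tlr2, 25.3 for Tlr4, 21.7 for Tlr13 and 21.0 for Tlr8, and each was above the next in only 7, 6 and 5 of 12 libraries. Below them, Tlr8 was above Myd88 (median 15.6 FPKM) in 9 libraries, Myd88 above Tlr1 (10.3 FPKM) in 5, Tlr1 above Tlr3 (4.33 FPKM) in 9 and Tlr3 above Tlr9 (0.03 FPKM) in 10. Cd14 and Tlr7 were also the least variable, with a coefficient of variation over the 12 libraries of 25.1% and 28.2% in FPKM, against 97.2% for Myd88 and 147% for Tlr9.

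**Figure D2:**
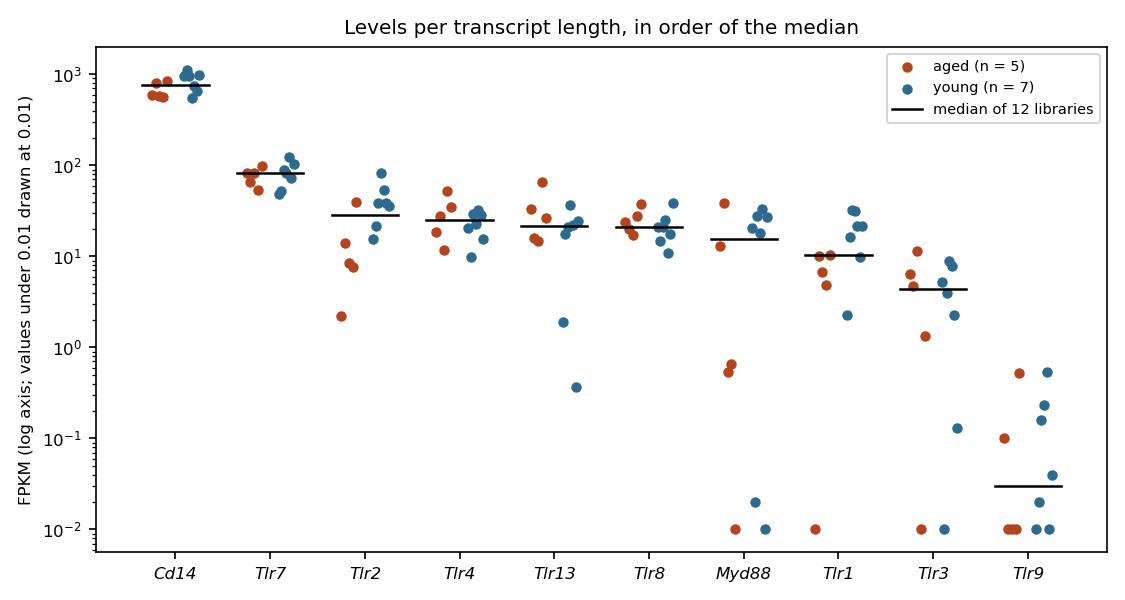
FPKM of each gene (log axis, values under 0.01 drawn at 0.01) in the 5 aged and 7 young libraries, ordered by the median of all 12 (black line). Cd14 and Tlr7 stand above the rest, whereas the ranges of Tlr2, Tlr4, Tlr13 and Tlr8 overlap.

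Tlr2 and Tlr1, whose products pair to bind triacylated lipopeptides, had the lowest log2 fold changes of the 9 tested genes. Their levels also ran together more closely than those of any other of the 36 pairs of tested members (r = 0.856 over log2(CPM + 1) in 12 libraries that differ in age and depth, with the next pair at 0.403). This rank did not hold within the 7 young libraries, where r was 0.683 for Tlr1 and Tlr2, 0.73 for Tlr1 and Tlr13, 0.789 for Tlr3 and Tlr4 and -0.883 for Tlr2 and Cd14. Aged library 1 was the lowest of the 12 libraries for both genes, at 0.0401 CPM for Tlr1 and 6.73 CPM for Tlr2. The r without that library was not computed. The promoters of Tlr1 and Tlr2 are shown because these members varied together over the 12 libraries. Each is the 300 bases from 250 before the start to 50 after it, on the minus strand, from RefSeq on GRCm38.p6, in gene direction. The start of each promoter entry lies inside the gene span given below for that gene. Part of the Tlr1 window and most of the Tlr2 window therefore lie within the gene. Capitals mark the core of the Ets factor motif, AGGAAG, on either strand, PU.1 being an Ets factor of macrophages.
Tlr1, chr5:64933509-64933808: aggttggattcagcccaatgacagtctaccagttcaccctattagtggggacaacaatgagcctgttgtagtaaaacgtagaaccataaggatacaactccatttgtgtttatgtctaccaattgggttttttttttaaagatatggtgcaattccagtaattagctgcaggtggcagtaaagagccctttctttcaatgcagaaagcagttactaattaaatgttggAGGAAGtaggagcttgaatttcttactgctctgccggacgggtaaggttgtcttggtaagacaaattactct
Tlr2, chr3:83841559-83841858: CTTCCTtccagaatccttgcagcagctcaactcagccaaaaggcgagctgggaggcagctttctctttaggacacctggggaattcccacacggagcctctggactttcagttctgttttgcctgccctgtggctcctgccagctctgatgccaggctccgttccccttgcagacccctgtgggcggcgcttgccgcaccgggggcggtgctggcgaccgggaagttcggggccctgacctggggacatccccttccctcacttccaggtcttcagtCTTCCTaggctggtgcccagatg
The Tlr1 window holds 1 match and the Tlr2 window 2. The core was found in 35.4% of 32851 promoters of the same length, and in 4 of the 8 promoter windows found for these genes (Tlr1, Tlr2, Tlr9, Tlr13). The longer PU.1 form GAGGAAGT, which overlaps the core, occurred in the windows of Tlr1 and Tlr9 and in 3.2% of all promoters. A loose NF-kB form (3 G, 5 free bases, 2 C), searched on both strands, occurred in those of Tlr2 and Tlr3 and in 50.8% of all promoters. An interferon-response form (GAAA, 2 free bases, GAAA) occurred in that of Myd88 and in 3.44% of all promoters.

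Tlr2 (Entrez 24088, chr3:83836272-83841824 on GRCm38) measured 6.73, 40.4, 28.1, 25.0 and 97.2 CPM in aged libraries 1 to 5. In young libraries its lowest value was 49.1, its median 103.2 and its highest 182.4 CPM. All aged libraries lay under the young median and 4 of 5 under every young library; only aged library 5 overlapped. Tlr2 averaged 39.5 ± 34.4 CPM in aged and 104.7 ± 43.6 CPM in young libraries, an aged mean 0.377 times the young one (log2 fold change -1.41 ± 0.54 SE, edgeR adjusted p = 0.589). The direction held in all 24 alternatives, where the adjusted p ranged from 0.221 to 1. It was nearer to 0 when aged libraries 1, 3 and 4 were left out, at -0.62 (edgeR adjusted p = 1), and farther from 0 when aged library 5 was, at -2.09 (edgeR adjusted p = 0.262).

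Tlr1 (Entrez 21897, chr5:64924680-64933600) measured 0.0401, 28.9, 20.5, 14.8 and 24.3 CPM in aged libraries 1 to 5, against a lowest of 6.67, a median of 49.2 and a highest of 87.8 CPM in young libraries. All aged libraries lay under the young median, 1 of them under every young library, and aged library 1 held 1 count. The log2 fold change was -1.49 ± 0.93 SE (edgeR adjusted p = 0.999), and -0.91 without aged libraries 1, 3 and 4. Tlr1 counts are uncertain because its transcripts share a run of 229 bases with Tlr6, the receptor 19491 bases away that pairs with Tlr2 for diacylated lipopeptides. Only 4 of 12 Tlr1 counts were whole numbers, while the other 9 genes had whole counts in 12 of 12 libraries. Tlr6 measured 14.1 ± 15.6 CPM in aged and 14.4 ± 20.2 CPM in young libraries (log2 fold change -0.04 ± 1.57 SE; 0.32 without aged libraries 1, 3 and 4).

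Tlr4 (Entrez 21898, chr4:66827551-66846581), the lipopolysaccharide receptor, measured 156.1, 224.0, 106.8, 468.1 and 244.2 CPM in aged libraries 1 to 5, against a lowest of 83.4, a median of 182.0 and a highest of 220.6 CPM in young libraries. Aged libraries 2, 4 and 5 lay above every young library, the other 2 within the young range. The mean was 239.8 ± 138.8 CPM in aged and 169.6 ± 54.8 CPM in young libraries (log2 fold change 0.50 ± 0.34 SE, edgeR adjusted p = 0.999). Leaving out aged library 4 gave 0.10, and leaving out aged libraries 1, 3 and 4 gave 0.46.

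Cd14 (Entrez 12475, chr18:36725064-36726815) measured 1025, 1302, 1101, 1045 and 1205 CPM in aged libraries 1 to 5, against a lowest of 699.5, a median of 1469 and a highest of 1906 CPM in young libraries. The aged libraries were tightly grouped and all lay under the young median, inside the young range. The means were 1136 ± 116 CPM in aged and 1342 ± 438 CPM in young libraries (log2 fold change -0.24 ± 0.23 SE, edgeR adjusted p = 0.999; -0.10 without aged libraries 1, 3 and 4). Ly96, named after its values were seen, encodes MD-2, the partner that holds lipopolysaccharide on Tlr4. It measured 624.4 ± 157.6 CPM in aged and 574.1 ± 122.8 CPM in young libraries. Per length, Ly96 measured 1093 ± 319.7 FPKM in aged and 1117 ± 232.1 FPKM in young libraries. Cd14 measured 677.5 ± 138.5 FPKM in aged and 851.7 ± 206.7 FPKM in young libraries.

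Myd88 (Entrez 17874, chr9:119335934-119340018) was well detected in some libraries and at or near 0 in others, at both ages. It measured 25.9, 72.5, 1.15, 1.43 and 0 CPM in aged libraries 1 to 5, and 42.9, 0.0356, 48.4, 26.9, 51.8, 0 and 49.4 CPM in young libraries 1 to 7. It had at least 100 counts in 2 of 5 aged and 5 of 7 young libraries and at most 3 counts in 1 aged and 2 young ones. The log2 fold change was -0.64 ± 1.59 SE (edgeR adjusted p = 0.999), -2.13 without aged library 2 and 0.24 without aged libraries 1, 3 and 4. Such gaps were common: of 6680 tested genes with a mean of at least 10 CPM, 35.7% had at most 3 counts in at least 1 library, and 3 of the 9 tested members did (Tlr1, Tlr3 and Myd88). A count of 0 allows up to 3 counts, or 0.0931 to 0.15 normalised CPM depending on the library, for counting error only.

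Tlr7 (Entrez 170743, chrX:167303380-167330574), a sensor of single-stranded RNA, measured 337.6, 251.2, 366.5, 236.6 and 330.1 CPM in aged libraries 1 to 5, against a lowest of 206.7, a median of 268.7 and a highest of 395.2 CPM in young libraries. The 5 aged libraries lay inside the young range. The means were 304.4 ± 57.1 CPM in aged and 290.9 ± 78.3 CPM in young libraries, with the smallest standard error of the receptors (log2 fold change 0.06 ± 0.23 SE, edgeR adjusted p = 0.999). The sign turned under 8 of 24 alternatives, within -0.04 to 0.16, and was -0.01 without aged libraries 1, 3 and 4.

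Tlr8 (Entrez 170744, chrX:167241123-167264329), which lies 39050 bases from Tlr7, measured 112.4, 98.6, 88.0, 147.7 and 168.2 CPM in aged libraries 1 to 5. In young libraries the lowest was 43.2, the median 92.4 and the highest 172.3 CPM. Of the aged libraries, 4 lay above the young median, and none above every young library (log2 fold change 0.41 ± 0.34 SE, edgeR adjusted p = 0.999; 0.51 without aged libraries 1, 3 and 4). Its highest young value, in library 7, stood apart from the other young ones.

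Tlr13 (Entrez 279572, chrX:106143275-106160493), which in mice senses bacterial ribosomal RNA, measured 143.3, 64.6, 68.9, 299.4 and 93.3 CPM in aged libraries 1 to 5. Young libraries ranged from 1.46 to 116.8 CPM with a median of 75.8 CPM. Aged libraries 1 and 4 lay above every young library, and young libraries 1 and 6 far below every aged one, at 8.55 and 1.46 CPM. The log2 fold change was 1.05 ± 0.70 SE (edgeR adjusted p = 0.999), 0.50 without aged library 4 and 0.28 without aged libraries 1, 3 and 4.

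Tlr3 (Entrez 142980, chr8:45395665-45411075), the sensor of RNA duplexes that signals through Ticam1 in place of Myd88, measured 29.1, 20.1, 57.2, 0 and 4.96 CPM in aged libraries 1 to 5, against a lowest of 0, a median of 16.1 and a highest of 30.3 CPM in young libraries. Libraries of both ages lay near 0, and the groups overlapped (log2 fold change 0.52 ± 1.43 SE, edgeR adjusted p = 0.999). Without aged library 3 the sign turned, at -0.20, and without aged libraries 1, 3 and 4 it was -0.29. Tlr9 (Entrez 81897, chr9:106222598-106226876), the sensor of unmethylated CpG DNA, was near the detection limit with 0.385 ± 0.678 CPM in aged and 0.421 ± 0.556 CPM in young libraries, and had at most 3 counts in 6 of 12 libraries. It was not tested.

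**Figure D3:**
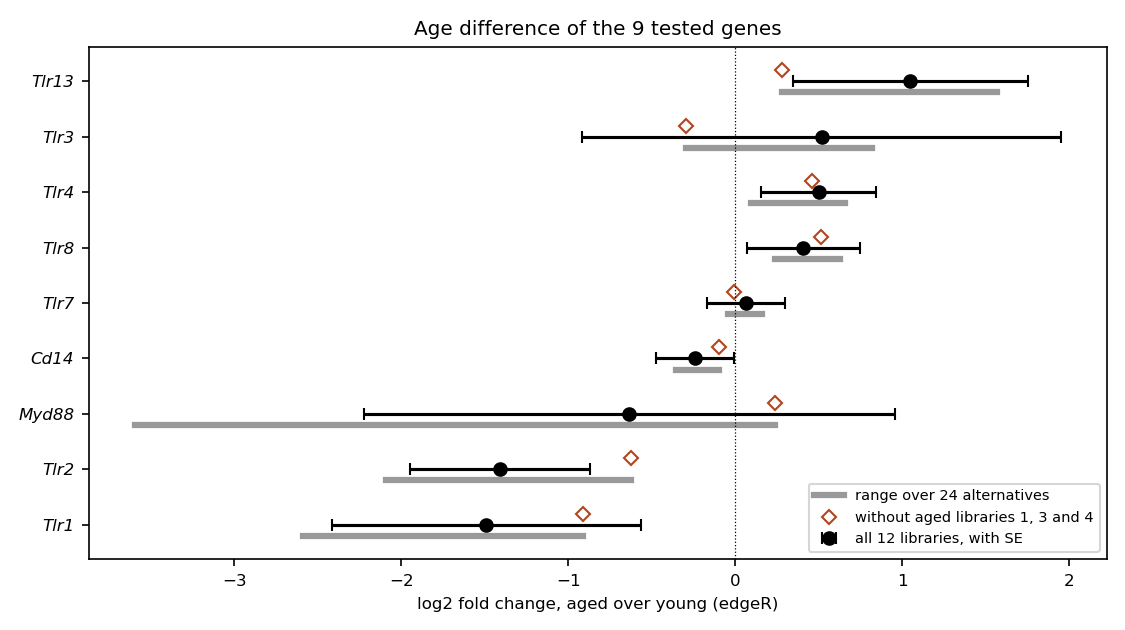
log2 fold change of aged over young for the 9 tested genes (horizontal axis), with the SE, the range over 24 alternatives (grey) and the value without aged libraries 1, 3 and 4 (open diamonds). The intervals of Tlr3 and Myd88 are the widest, at SE of 1.43 and 1.59, and Tlr7 lies nearest to 0.

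The make-up of receptor transcripts, as shares of the summed FPKM of the 8 receptors, is given as a description with no test. The endosomal receptors made up 74.6 ± 9.85% in aged and 60.8 ± 6.20% in young libraries. Their share was 87.7, 67.0, 82.5, 69.6 and 66.1% in aged libraries 1 to 5 and 53.2 to 69.6% in young libraries. Their sum was 138.6 ± 22.7 FPKM in aged and 124.8 ± 39.35 FPKM in young libraries. The surface receptors summed to 49.8 ± 26.5 FPKM in aged and 82.85 ± 34.4 FPKM in young libraries. Aged libraries 1 and 3 had the highest shares. Aged library 4, the lowest on the first component, was level with the highest young library, and aged libraries 2 and 5 lay inside the young range. The Tlr2 share was 7.03 ± 5.58% in aged and 18.8 ± 5.14% in young libraries, and the ratio of Tlr2 to Tlr4 was 0.526 ± 0.418 in aged and 1.88 ± 0.920 in young libraries. In aged libraries 2 and 5 alone the Tlr2 share was 8.94% and 15.7%, against a young range of 13.5 to 28.1%. Tlr2 was under Tlr4 in 4 of 5 aged and 1 of 7 young libraries. The summed receptor level was 188.4 ± 41.4 FPKM in aged and 207.7 ± 69.0 FPKM in young libraries. These FPKM carry no TMM factors, so an age difference can differ in sign from that in CPM. Tlr7 measured 77.1 ± 17.4 FPKM in aged and 81.6 ± 26.8 FPKM in young libraries, but 304.4 and 290.9 CPM. The Tlr7 share was 42.1 ± 10.9% in aged and 39.9 ± 5.55% in young libraries.

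**Figure D4:**
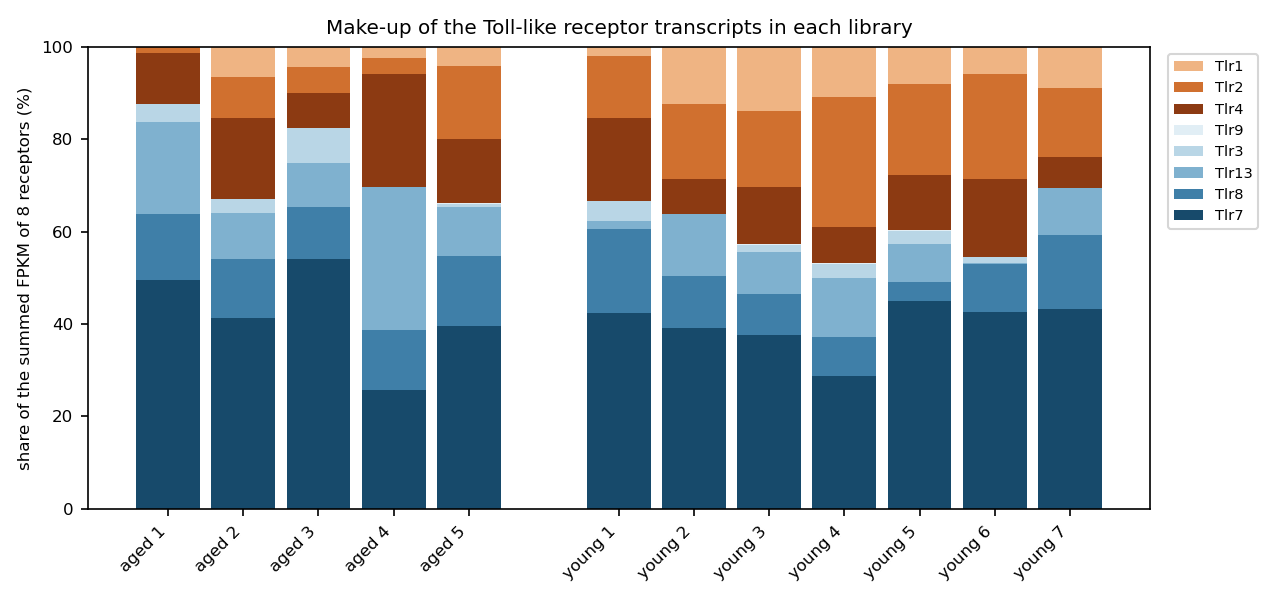
Share of the summed FPKM of the 8 receptors (vertical axis, %) in each aged (left) and young (right) library; blue shades are endosomal and orange shades surface receptors. Tlr7 takes 25.7 to 54.1% of aged and 28.7 to 45.1% of young libraries, and Tlr2 1.33 to 15.7% of aged and 13.5 to 28.1% of young ones.

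The genes around the receptors also gave no call. Of 104 genes in 6 lists of related pathway genes, 101 were in the table and 89 were tested. None passed the threshold by edgeR, DESeq2 or limma voom, where edgeR and limma voom each called 0.0105% and DESeq2 1.27% of all tested genes. At an unadjusted p under 0.05 by edgeR, 6 were higher and 5 lower, against 3.85% higher and 2.12% lower of all tested genes. The log2 fold change was positive for 38 and negative for 51, with a median of -0.11 (all tested genes -0.01). Without aged library 2 there were 2 calls, Nfkbiz, an NF-kB partner (1.42, adjusted p = 0.0229), and Ctsb, a lysosomal protease (-0.76, adjusted p = 0.027). Over all genes that fit called 75 of 9930 (0.755%), against 1 of 9550 with all libraries.

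Of 18 accessory and trafficking genes 13 were negative, with a median of -0.28. At an unadjusted p under 0.05 by edgeR, 3 were lower (Cd36, Ctsl and Dnase2a) and 0 higher. Of all tested genes, 2.12% were lower and 3.85% higher. At the same cut, the adaptors and kinases had 2 higher and 0 lower, and the transcription factors 1 higher and 0 lower. Negative regulators had 1 higher and 1 lower, induced targets 2 higher and 1 lower, and the other Toll-like receptors 0 of either. Unc93b1, the chaperone that carries the endosomal receptors, measured 76.1 ± 53.4 CPM in aged and 136.5 ± 47.5 CPM in young libraries (log2 fold change -0.84 ± 0.42 SE, edgeR adjusted p = 0.893). It measured 72.2, 165.6, 23.7, 52.8 and 66.3 CPM in aged libraries 1 to 5. Aged libraries 3 and 4 lay under the young range of 63.0 to 195.9 CPM, and aged libraries 1, 2 and 5 inside it. Cd36, Ctsl, Dnase2a and Unc93b1 were named after their values were seen. Slc15a4, an endolysosomal transporter needed for Tlr7 signalling, measured 27.0 ± 13.2 CPM in aged and 13.5 ± 13.9 CPM in young libraries, and Cd180, a Tlr4-like surface protein, 1.65 ± 3.23 CPM in aged and 16.3 ± 18.7 CPM in young libraries (adjusted p = 0.982). Most of the aged Cd180 mean came from library 2. Young libraries 3, 5 and 6 held 31.0, 32.3 and 44.0 CPM of Cd180, while the young median was 3.47 CPM. Cd180 had a log2 fold change of -3.29 ± 1.84 SE, and of -2.04 without aged libraries 1, 3 and 4. Slc15a4 had one of 0.997 ± 1.10 SE, and of 0.76 without them.

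Of 23 adaptors and kinases 10 were positive and 13 negative. Tbk1, the kinase for interferon responses, measured 96.7 ± 46.7 CPM in aged and 50.8 ± 16.7 CPM in young libraries (log2 fold change 0.93 ± 0.42 SE, adjusted p = 0.791; -0.10 without aged libraries 1, 3 and 4), and Mapkapk2, a kinase downstream of p38, 21.6 ± 18.2 CPM in aged and 42.2 ± 24.7 CPM in young libraries. Among 15 transcription factors, Fos measured 5239 ± 1222 CPM in aged and 3659 ± 686 CPM in young libraries (0.52 ± 0.20 SE, adjusted p = 0.578). Rela, an NF-kB subunit, measured 10.6 ± 8.25 CPM in aged and 20.9 ± 17.7 CPM in young libraries. When aged libraries 1, 3 and 4 were left out, the log2 fold change was 0.31 for Fos, -0.25 for Mapkapk2 (-0.97 with all libraries) and -0.23 for Rela (-0.97 with all libraries).

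Of 15 negative regulators, 8 were positive and 7 negative. Nfkbia, the NF-kB inhibitor that NF-kB itself induces, measured 515.9 ± 127.8 CPM in aged and 816.2 ± 279.5 CPM in young libraries (log2 fold change -0.66 ± 0.25 SE, adjusted p = 0.565), and Irak3, an inhibitory kinase of the pathway, 26.2 ± 21.1 CPM in aged and 10.6 ± 9.45 CPM in young libraries. Of 16 induced targets 9 were positive and 7 negative (median 0.12). Ptgs2, cyclooxygenase, measured 17.7 ± 26.6 CPM in aged and 7.85 ± 15.5 CPM in young libraries, and Cxcl10, an interferon-induced chemokine, 13.2 ± 15.6 CPM in aged and 42.7 ± 52.8 CPM in young libraries. With aged libraries 1, 3 and 4 left out, the log2 fold change was -0.35 for Nfkbia, 0.76 for Irak3 (1.30 with all libraries), -1.39 for Cxcl10 (-1.69 with all libraries) and -10.89 for Ptgs2 (1.17 with all libraries), a fitted value that is no bound because its 2 remaining aged libraries had no counts.

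**Figure D5:**
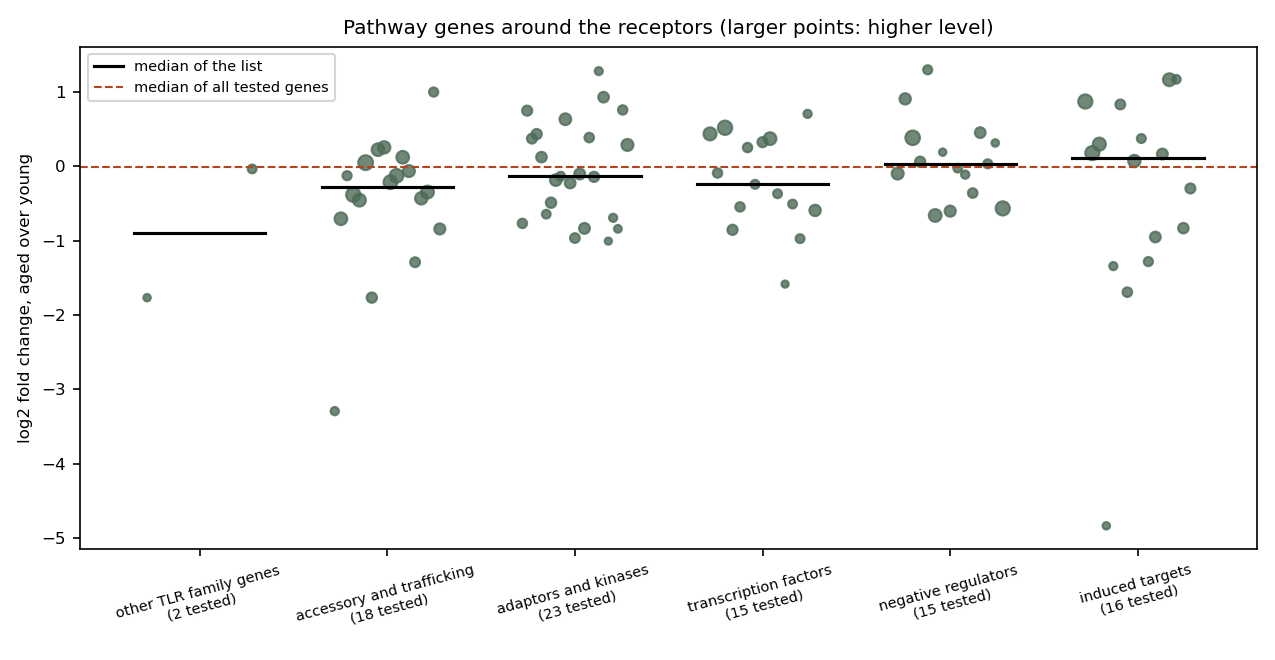
log2 fold change of aged over young (vertical axis) for the 89 tested pathway genes, by list, with the median of each list and that of all tested genes. The medians run from -0.90 for the other Toll-like receptors (2 genes) to 0.12 for the induced targets, and no gene passed the threshold.

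The tested gene whose level ran most closely with each member over the 12 libraries, among 6680 genes with a mean of at least 10 CPM, was found by Pearson r of log2(CPM + 1), as a description. The r ranged from 0.784 to 0.957. The closest gene was Jpt1 for Tlr1, Cln3 for Tlr2, Gab3 for Tlr3, Pdcd6ip for Tlr4, Armc10 for Tlr7, Tapbp for Tlr8, Trpm7 for Tlr13, Ndufa11 for Cd14 and Clk2 for Myd88. All share libraries, depth and age with the member.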

How the data were processed

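RNA from brain perivascular macrophages was amplified by SMART-seq2 with oligo-dT priming and sequenced without strand marks or molecular identifiers, per the labels' protocols. The authors deposited 1 table of estimated counts and of normalised values for 17358 genes. The submitters' processing notes list HISAT2 2.0.4, Bowtie2 2.2.5, RSEM 1.2.12, DESeq2 1.4.5 and GRCm38 (mm10), with no role or order. The normalised values, deposited by the authors without a unit, were read as FPKM from their relation to counts and transcript lengths (median ratio 0.948 to 0.979).

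Estimated counts were rounded and tested with edgeR 4.0.16 in R 4.3.3 (quasi-likelihood, robust, TMM, filterByExpr, Benjamini-Hochberg over all 9550 tested genes, threshold 0.05, group as the only term). CPM levels are TMM-normalised, while FPKM values were used as deposited, without TMM factors. DESeq2 1.42.0, limma 3.58.1 and other settings were alternatives. The members and lists were chosen with earlier results of these data known. Pathway genes were named as the highest and lowest log2 fold change of each list at a mean of at least 10 CPM, plus any past the threshold. RefSeq GRCm38.p6 gave 1-based coordinates and promoters, for 7 of the 10 members.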

Additional observations from a re-analysis of the deposited data

Results flagged for a closer look

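Of 42 groups examined, 6 held a library set apart from the others of its age, where the gap rule would flag about 1 in 20 groups of normally distributed values by chance. That rate need not hold for the groups that lie mostly near 0 (Tlr9, Cd180 and Ptgs2). Tlr8 reached 172.3 CPM in young library 7, with the other young libraries at 43.2 to 98.6 CPM. Tlr9 reached 1.57 CPM in aged library 5, with the others at 0 to 0.361 CPM, and 1.55 CPM in young library 5, with the others at 0 to 0.621 CPM. Cd180 reached 7.42 CPM in aged library 2, with the others at 0.0477 to 0.433 CPM. Ptgs2 reached 42.1 CPM in young library 6, with the others at 0 to 10.1 CPM, and Cxcl10 152.8 CPM in young library 4, with the others at 0 to 55.1 CPM.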

How the results depend on the processing

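No member passed the threshold in any of 24 alternatives, while the count over all genes, 1 with all libraries, was 4 with upper-quartile factors, 13 with no filter, 121 with DESeq2 (64 higher, 57 lower), 38 with the other edgeR estimation mode (36 higher, 2 lower), 6 with FPKM + 1 and limma, and 0 with FPKM + 0.1 or without aged libraries 1, 3 and 4. Leaving out 1 library gave 0 to 75 calls over all genes and 0 to 2 among the pathway genes. The 75 were without aged library 2 (61 higher, 14 lower), and the 2 pathway calls likewise. The log2 fold change turned sign for Tlr3 (0.52) at -0.0722 with the replicate block and -0.29 without aged libraries 1, 3 and 4, with -0.20 to 0.82 over single libraries left out. For Tlr7 (0.06) it was -0.0001 with upper-quartile factors, -0.01 without aged libraries 1, 3 and 4 and -0.0433 with FPKM + 1 or + 0.1, and -0.0387 to 0.1466 over single libraries. Without aged libraries 1, 3 and 4 it was 0.24 for Myd88, -0.10 for Tbk1, 0.32 for Tlr6 and -10.89 for Ptgs2. Tlr6 gave 0.09 with the other edgeR mode, 0.0035 with a length offset and -0.71 to 0.90 over single libraries, and Ptgs2 -0.41 with voom and -0.18 to 3.03 over single libraries. The cause was not tested. No pairing by the replicate numbers 1 to 5 was seen (r of deviations -0.045 to 0.103, no library closest to its own number). The labels do not say whether the numbers pair, and the spread between libraries could hide a weak pairing. The replicate block gave 0 calls, as did the same libraries without it, an alternative chosen after seeing the data.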

Other observations

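Cd209a, which makes up nearly all of the dendritic cell list, was chosen after its values were seen. It measured 1703, 2310, 1926, 2494 and 1266 CPM in aged libraries 1 to 5, and 2156, 1859, 493.8, 402.5, 493.3, 493.4 and 491.7 CPM in young libraries 1 to 7. The 2 young libraries with the highest Cd209a, 1 and 2, held the lowest young Tlr2 (49.1 and 64.3 CPM), and the aged library with the lowest Cd209a, library 5, held the highest aged Tlr2 (97.2 CPM). Aged libraries 1 and 2 did not follow this order: library 1 had the second-lowest aged Cd209a and the lowest Tlr2 (6.73 CPM), and library 2 the second-highest aged Cd209a and the second-highest Tlr2 (40.4 CPM). No relation of Cd209a to Tlr2 was tested.

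Of the Toll-like receptor genes outside the 10, Tlr5, a flagellin receptor, measured 2.04 ± 2.55 CPM in aged and 6.96 ± 6.05 CPM in young libraries. Tlr11 had 570 counts in young library 3 and 318 in young library 4 and at most 1 count elsewhere, and Tlr12 had at most 1 count in any library.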
